A study of Rattus norvegicus with 16 samples.

Results

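Transcripts of the Sprouty and Spred inhibitors of ERK signalling, and of the ERK-responsive gene Phlda1, were followed in the rat initial segment, the part of the epididymis nearest the testis. The 6 genes asked for were Spry1, Spry2, Spry4, Spred1, Spred2 and Phlda1, taken by gene symbol from the platform annotation. Of these, 4 matched a probe set (Spry1, Spry2, Spry4 and Phlda1, 1 probe set each), out of 31042 probe sets that are not controls, and all 4 passed the minimum level. Spred1 and Spred2 had no probe set under their symbol and were not analysed here.

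Tissue came from adult male Sprague-Dawley rats with no genetic alteration named in the labels. The efferent ducts, which carry testicular fluid into the epididymis, were ligated on 1 side, and the other side had a sham operation. The 4 groups were sham and 6, 12 and 18 h of ligation, each with 4 arrays that the labels call biological replicates. The sham group carries the time label 0, and the labels do not say which arrays come from the same animal, so p-values measure the spread between these arrays. The 1 sham group served every time, and the 3 comparisons with it share those arrays. The dissected piece holds several cell types, and in such bulk tissue fewer cells of a type and less RNA per cell cannot be told apart.

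Sprouty proteins are membrane-associated inhibitors that growth factor signalling induces and that then dampen the RAS to ERK cascade below receptor tyrosine kinases. Spred proteins act on the same cascade by bringing the RAS-inactivating protein neurofibromin to the membrane. PHLDA1 is a protein with a pleckstrin homology-like domain whose transcript rises when growth factors activate ERK. In the initial segment, ERK is active in the principal cells, the main epithelial cell type, and testicular fluid is known to keep it so. The series title names ERK among the pathways controlled by testicular factors, and each comparison with sham asks whether these transcripts changed once that fluid was cut off.

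Markers of principal cells were present in the tissue, beside those of other cells. Of 10 principal cell markers listed, 5 matched a probe set. These 5 had median log2 values over the 16 arrays between 10.61 (Ros1, a receptor tyrosine kinase of these cells) and 14.24 (Adam7). The medians of the 7 fibroblast markers ran from 5.96 (Lum) to 12.75 (Dcn), so the 2 ranges overlapped. None of the 3 matched lymphocyte markers or 3 matched neutrophil markers reached the minimum level, a log2 value of 5 on at least 4 arrays. The neutrophil marker S100a9 nevertheless stood at 8.47 and 10.36 on 12 h replicates 1 and 2, and S100a8 at 4.92 and 8.75. The arrays divided along the replicate numbers: after allowing for the groups, the levels on replicates 3 and 4 differed from those on replicates 1 and 2 for 36.9% of 13410 tested features (limma, Benjamini-Hochberg adjusted p under 0.05, the rule for every call below). Replicates 1 and 2 are called array class A below, and replicates 3 and 4 class B. The labels name no batch. Within class B, sham and 6 h also differed from 12 h and 18 h in a bacterial control transcript (dap), whose mean was 7.23 to 7.98 on the former and lay at the floor of 2.22 on the latter, so in class B ligation for 12 or 18 h and this division cannot be told apart.

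The stretches before the transcription starts of the 4 measured genes are shown because they are where transcription factors named with this pathway could bind. They are the 250 bases upstream of a start in the RefSeq promoter table (GRCr8), written 5′ to 3′ on the gene's strand. Capitals mark matches, on either strand, to an ETS core (CCGGAA), an EGR site (GCGNGGGCG) or a STAT site (TTCNNNGAA).
Spry1, chr2:122485097-122485346, plus strand: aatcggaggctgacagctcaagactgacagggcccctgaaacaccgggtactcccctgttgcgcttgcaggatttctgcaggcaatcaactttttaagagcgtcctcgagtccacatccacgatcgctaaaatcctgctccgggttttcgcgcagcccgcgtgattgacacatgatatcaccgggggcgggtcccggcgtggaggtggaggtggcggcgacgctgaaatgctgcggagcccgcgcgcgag
Spry2, chr15:89111927-89112176, minus strand: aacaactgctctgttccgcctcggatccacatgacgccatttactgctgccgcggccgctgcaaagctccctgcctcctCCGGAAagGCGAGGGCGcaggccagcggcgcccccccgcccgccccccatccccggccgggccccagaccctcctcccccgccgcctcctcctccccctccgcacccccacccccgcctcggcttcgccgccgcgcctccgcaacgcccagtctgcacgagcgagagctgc
Spry4, chr18:30702547-30702796, minus strand: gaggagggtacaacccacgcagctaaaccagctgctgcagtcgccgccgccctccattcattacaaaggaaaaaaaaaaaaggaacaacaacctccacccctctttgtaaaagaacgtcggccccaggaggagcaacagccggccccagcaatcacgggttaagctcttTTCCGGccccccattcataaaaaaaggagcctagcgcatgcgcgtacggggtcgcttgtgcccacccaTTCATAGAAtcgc
Phlda1, chr7:48853440-48853689, plus strand: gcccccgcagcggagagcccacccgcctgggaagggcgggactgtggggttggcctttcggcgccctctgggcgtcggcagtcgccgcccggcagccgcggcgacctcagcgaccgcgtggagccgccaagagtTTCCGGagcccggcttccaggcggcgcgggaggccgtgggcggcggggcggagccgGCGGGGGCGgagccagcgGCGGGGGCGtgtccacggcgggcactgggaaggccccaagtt

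The windows of Spry2, Spry4 and Phlda1 each held 1 ETS core, at 171, 81 and 116 bases before the start, and the Spry1 window held none. The Spry2 window also held an EGR site, which begins 163 bases before the start. The Phlda1 window held 2 EGR sites, and the Spry4 window a STAT site 13 bases before the start. The start used for the Spry1 window lies inside the annotated gene, which runs from 122484995 to 122490008 on chromosome 2. The table gave Spry2 another start, also inside its gene, at whose window of chr15:89109843-89110092 there were 1 EGR and 1 STAT site and no ETS core. Among all 33469 windows of this length, 12.6% held the ETS core, 4.29% the EGR site and 7.67% the STAT site. No window of these 4 genes held a match to a CRE (TGACGTCA) or an AP-1 site (TGANTCA). A match is a string of letters, and binding was not measured.

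Spry2 and Spry1 were called lower at 12 h of ligation in the fit over all arrays. Neither was called when sham and 12 h were fitted alone. With a block for the array classes and the dap division, Spry2 was called and Spry1 was not. That block leaves class B no direct comparison of 12 h with sham. The class B arrays at 12 h still enter it, through 12 h against 18 h. At 12 h Spry2 stood at 29.8% of its sham level over all arrays and Spry1 at 63.2%. The size of the Spry2 fall is uncertain, since 1 array at 12 h was under 5, the level taken here as background. The Spry2 log2 difference was -1.07 within replicates 1 and 2 and -2.43 within replicates 3 and 4. Spry4 stayed within 6.08 to 6.73 on all arrays, with repeated values, and the Phlda1 means were lower than sham in both array classes but differed more between the classes. Of the 4 measured genes, limma called 2 lower and 0 higher at 12 h, where it called 4.09% of all tested probe sets lower. It called 0 at 6 h and 0 at 18 h, with 2 at an unadjusted p under 0.05 at each. With the array class as a block, Phlda1 was also called at 12 h, and Spry2 and Phlda1 were called at 18 h. That block called 12.9% and 16.2% of all tested probe sets at 12 and 18 h. With the dap division blocked as well, these added calls were not made. Of the 13410 tested probe sets, 764, 2618 and 2972 had an unadjusted limma p under 0.05 at 6, 12 and 18 h. Of all tested probe sets, 0.283%, 7.86% and 10.2% were called at 6, 12 and 18 h, and 0.172% and 4.96% were called lower at 6 and 18 h. The median log2 difference from sham over the 4 genes was -0.73, -0.93 and -0.75 at 6, 12 and 18 h, against 0.02, 0.02 and 0.01 over all tested probe sets.

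**Figure D1:**
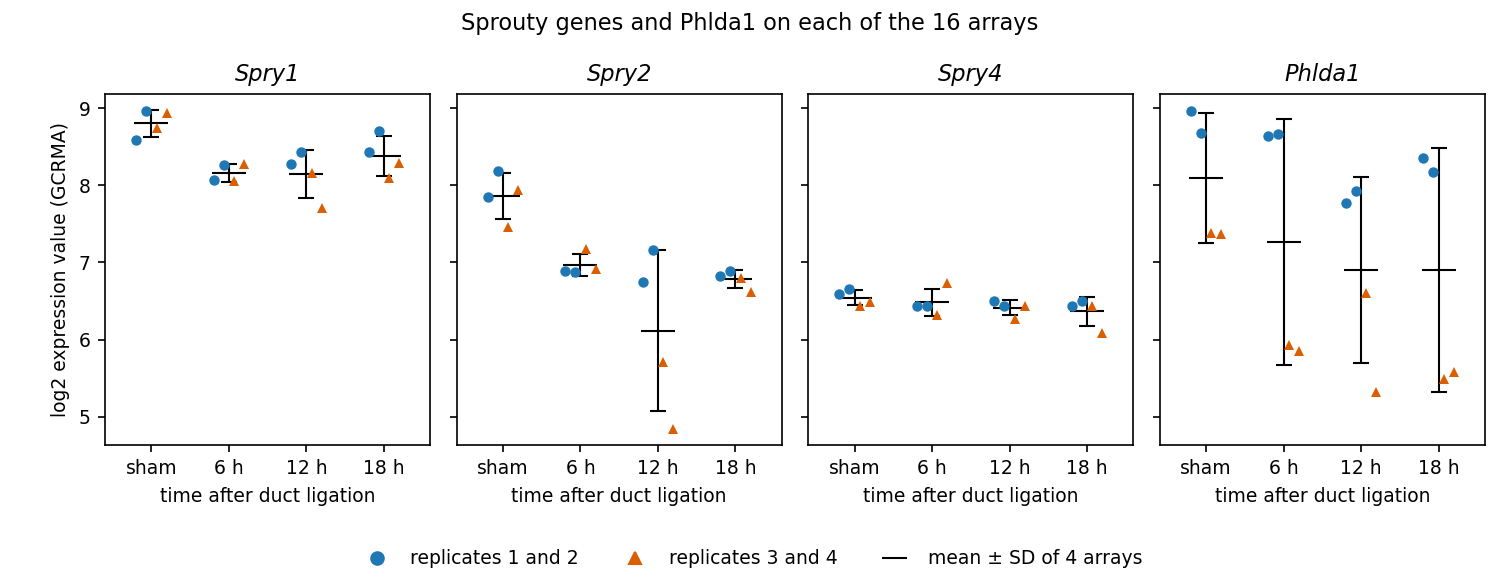
Log2 expression values of Spry1, Spry2, Spry4 and Phlda1 (y axis) on each array, by group (x axis). Circles are replicates 1 and 2, triangles replicates 3 and 4, and bars the mean ± SD of 4 arrays. All ligated arrays lie below all sham arrays for Spry2 at 6, 12 and 18 h and for Spry1 at 6 and 12 h, while Phlda1 values separate by array class in every group.

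Spry2 encodes the Sprouty protein best known for binding the ubiquitin ligase CBL and the adaptor GRB2. Its log2 values were 7.85, 8.19, 7.47 and 7.94 on sham replicates 1 to 4, then 6.89, 6.88, 7.18 and 6.91 at 6 h. They were 6.74, 7.17, 5.70 and 4.84 at 12 h, and 6.83, 6.89, 6.80 and 6.62 at 18 h. Every one of the 12 ligated arrays was below the lowest sham array. Such a separation below sham was seen for 1.54%, 5.41% and 6.53% of all tested probe sets at 6, 12 and 18 h. The group means ran from 7.86 ± 0.30 (SD, n = 4) in sham through 6.97 ± 0.14 at 6 h to 6.11 ± 1.05 at 12 h and 6.79 ± 0.12 at 18 h.

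At 12 h Spry2 differed from sham by -1.75 ± 0.36 on the log2 scale (SE; limma adjusted p = 0.00841), so that its level was 0.298 times that of sham. The difference stood at -0.90 ± 0.36 at 6 h (adjusted p = 0.718) and -1.08 ± 0.36 at 18 h (adjusted p = 0.0788), where it was not called. Replicates 3 and 4 at 12 h, at 5.70 and 4.84, were the lowest of the 16 arrays. The latter is under 5, the level taken here as background, so the 12 h mean is less certain. Without 12 h replicate 4 the difference at 12 h was -1.32 (adjusted p = 0.0099). Without that array the 18 h difference, still -1.08, had an SE of 0.25 (adjusted p = 0.0141). Leaving out 12 h replicate 2 instead gave an SE of 0.29 (adjusted p = 0.0343). In a fit of sham and 12 h alone the 12 h difference had an adjusted p of 0.0973, and in one of sham and 18 h alone the 18 h difference had 0.00731.

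Within replicates 1 and 2 the Spry2 differences were -1.14 ± 0.18, -1.07 ± 0.18 and -1.16 ± 0.18 at 6, 12 and 18 h, nearly the same at each time. Limma called the latter pair (adjusted p = 0.0332 and 0.0207) but not the 6 h difference (0.214). Within replicates 3 and 4 they were -0.66 ± 0.31, -2.43 ± 0.31 and -0.99 ± 0.31, of which only 12 h was called (adjusted p = 0.0168). With the array class as a block, Spry2 was called at 12 h (adjusted p = 0.00277) and at 18 h (0.0344). Blocking on the 3 sets that the dap control also divides gave -1.33 ± 0.35 at 12 h (adjusted p = 0.0350) and -0.66 ± 0.35 at 18 h (0.277). In that block the class B arrays of sham and 6 h form 1 set and those of 12 and 18 h another. Class B then gives no direct comparison of 12 or 18 h with sham. Its 12 h arrays still entered, through 12 h against 18 h, so these values are no check independent of those arrays. The lower 12 h values of replicates 3 and 4 amounted to a difference between classes of -1.36 ± 0.38 in the 12 h change. It did not pass the threshold (limma interaction, unadjusted p = 0.00451, adjusted p = 0.204). That test called 0.0447% of all tested probe sets, so the lack of a call does not show that the classes agree.

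The lower mean at 12 h did not pass the adjusted threshold against the neighbouring times, and 0 members were called between ligated times. Of all tested probe sets, 4.28% were called at 12 h against 6 h, 0% at 18 h against 12 h and 7.88% at 18 h against 6 h. Spry2 at 12 h against 6 h differed by -0.85 ± 0.36 (adjusted p = 0.238) and at 18 h against 12 h by 0.67 ± 0.36 (adjusted p = 0.793). In replicates 1 and 2 alone these differences were 0.07 ± 0.18 and -0.10 ± 0.18. In order of level the times ran sham, 6 h, 18 h, 12 h, and no pair of ligated times passed the adjusted threshold. The 95% interval of 12 h against 6 h ran from -1.63 to -0.07 (limma unadjusted p = 0.0341, adjusted p = 0.238). At 18 h against 6 h the difference was -0.18 ± 0.36, with a 95% interval from -0.96 to 0.60.

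Spry1 encodes a Sprouty protein known as a brake on RET and FGF receptor signalling in kidney and other epithelia. Its log2 values were 8.59, 8.96, 8.74 and 8.94 in sham and 8.07, 8.26, 8.06 and 8.27 at 6 h. They were 8.28, 8.43, 8.17 and 7.70 at 12 h and 8.44, 8.71, 8.09 and 8.29 at 18 h. All arrays at 6 h and 12 h were below all sham arrays, and at 18 h replicate 2 reached into the sham range. The means were 8.81 ± 0.18 (SD, n = 4) in sham, 8.17 ± 0.12 at 6 h, 8.15 ± 0.31 at 12 h and 8.38 ± 0.26 at 18 h.

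The Spry1 difference from sham was -0.66 ± 0.16 at 12 h (limma adjusted p = 0.0218). It was of similar size, -0.64 ± 0.16, at 6 h, where it was not called (adjusted p = 0.206), and -0.43 ± 0.16 at 18 h (adjusted p = 0.121). The 12 h call was lost without sham replicate 2 (adjusted p = 0.0655), sham replicate 4 (0.0698) or 12 h replicate 4 (0.0543). It was also lost with no minimum level (0.0566), with sham and 12 h alone in the fit (0.0891) and with the 3 array sets as a block (-0.44 ± 0.15, adjusted p = 0.0944). Within classes A and B the 12 h difference was -0.42 ± 0.18 (adjusted p = 0.244) and -0.90 ± 0.19 (0.057), and the 6 h difference was -0.61 ± 0.18 and -0.67 ± 0.19. With the array class as a block the adjusted p was 0.00956 at 12 h, 0.0962 at 6 h and 0.0647 at 18 h. Between ligated times Spry1 differed by -0.02 ± 0.16 (12 h against 6 h), 0.23 ± 0.16 (18 h against 12 h) and 0.22 ± 0.16 (18 h against 6 h), none of them called.

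**Figure D2:**
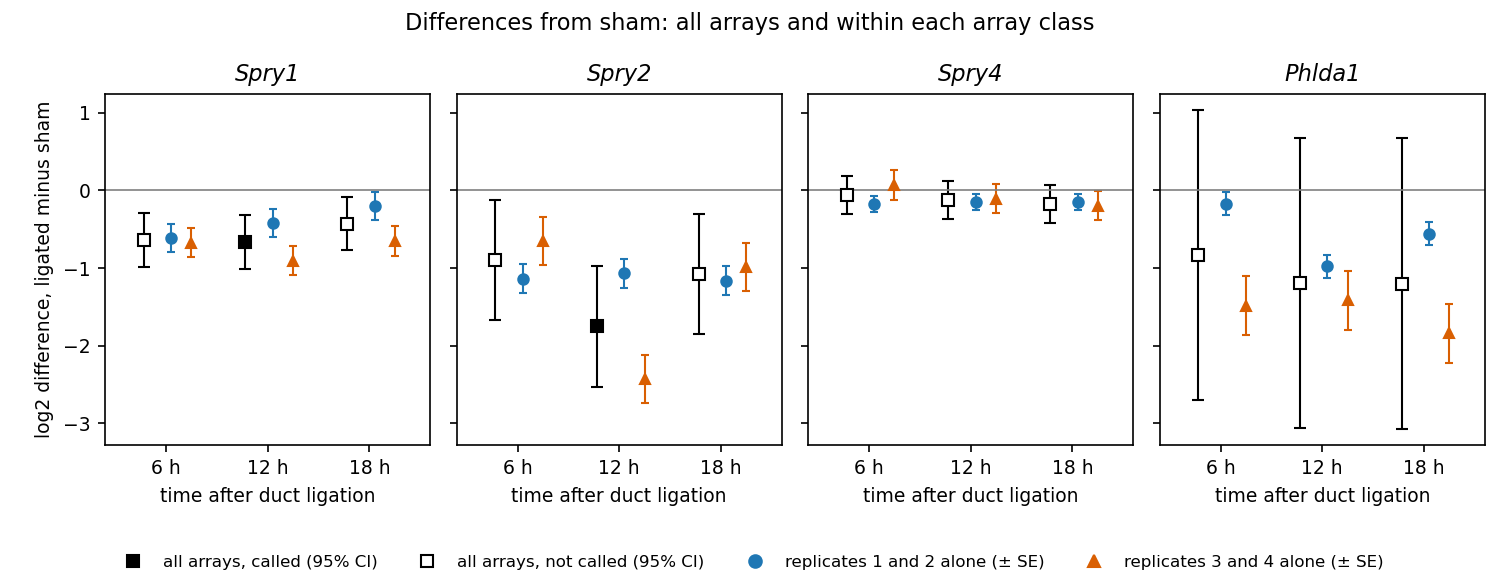
Log2 difference from sham (y axis) at 6, 12 and 18 h of ligation (x axis) for the 4 genes. Squares are the fit over all arrays with its 95% confidence interval, filled where called, and circles and triangles are fits within replicates 1 and 2 and within replicates 3 and 4, ± SE. The filled squares are Spry1 and Spry2 at 12 h, and the Phlda1 intervals over all arrays are wide while its values within each array class lie below 0.

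Phlda1 had the widest spread of the 4 genes. Its log2 values were 8.96, 8.68, 7.38 and 7.37 in sham, 8.63, 8.67, 5.93 and 5.85 at 6 h, 7.77, 7.92, 6.60 and 5.32 at 12 h, and 8.36, 8.17, 5.49 and 5.58 at 18 h. The 8 arrays of replicates 1 and 2 ran from 7.77 to 8.96 and the 8 of replicates 3 and 4 from 5.32 to 7.38, with no overlap. Class B differed from class A by -2.20 ± 0.20 (log2 difference, limma adjusted p = 6.38e-06). For the Sprouty genes the same difference was -0.50 ± 0.23 (Spry2, adjusted p = 0.1), -0.18 ± 0.10 (Spry1, 0.184) and -0.10 ± 0.08 (Spry4, 0.327), none of them called.

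Over all arrays Phlda1 differed from sham by -0.83 ± 0.87 at 6 h (adjusted p = 1), -1.20 ± 0.87 at 12 h (0.529) and -1.20 ± 0.87 at 18 h (0.482), and none was called. At each time 2 of the 4 ligated arrays, replicates 3 and 4, were below every sham array. With the array class as a block, the difference of -1.20 had an SE of 0.29 at 12 h and 18 h and was called at both (adjusted p = 0.0148 and 0.0121), but not at 6 h (0.345). Within replicates 1 and 2 the differences were -0.17 ± 0.14, -0.98 ± 0.14 and -0.56 ± 0.14 at 6, 12 and 18 h, with the 12 h one called (adjusted p = 0.0238). Within replicates 3 and 4 they were -1.49 ± 0.38, -1.41 ± 0.38 and -1.84 ± 0.38, with the 18 h one called (adjusted p = 0.0399).

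With the 3 array sets as a block the Phlda1 differences were -1.09 ± 0.36 at 12 h and -1.10 ± 0.36 at 18 h, and the calls were not made (adjusted p = 0.0823 and 0.0779). The test of whether the change differed between classes gave -1.32 ± 0.43 at 6 h (adjusted p = 0.964), -0.44 ± 0.43 at 12 h (0.755) and -1.28 ± 0.43 at 18 h (0.284). The unadjusted limma p of these was 0.0112, 0.332 and 0.0128. Of all tested probe sets this test called 0%, 0.0447% and 0.41% at 6, 12 and 18 h. In replicates 1 and 2 Phlda1 also fell from 6 h to 12 h, by 0.81 on the log2 scale (adjusted p = 0.0386), and in replicates 3 and 4 that difference was 0.07 ± 0.38.

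Markers of fibroblasts and macrophages moved with the same division of the arrays. Other stromal lists did so less clearly. Of 7 smooth muscle markers tested, 3 were called lower in replicates 3 and 4 (median -0.25), and of 2 endothelial markers 1 was. Of all tested features 36.9% were called in either direction. All 7 fibroblast markers tested were called lower in replicates 3 and 4, with a median log2 difference of -1.51. Their summed level, the log2 of the sum of unlogged values, was 14.13 to 14.83 in replicates 1 and 2 and 12.78 to 13.61 in replicates 3 and 4. Of 6 macrophage markers tested, 4 were called lower (median -0.95), with summed levels of 8.89 to 10.16 and 7.61 to 9.27 over the 8 markers matched. None of the matched markers of these lists was at the floor on all arrays. Against sham, limma called 0 of the 7 fibroblast markers at 6, 12 and 18 h (0, 0 and 1 at an unadjusted p under 0.05). Of the 6 macrophage markers it called 0 at 6 h, 0 at 12 h and 1 higher at 18 h (0, 1 and 2 at an unadjusted p under 0.05), which was Cd14 at 1.92 (adjusted p = 0.0158) from a sham mean of 4.90, under the background level. Of 5 principal cell markers, 2 were called higher in replicates 3 and 4 (median 0.34). The part of these cells in the Phlda1 values was not tested.

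Spry4 encodes a Sprouty protein that inhibits RAF activation. Its values covered only 6.08 to 6.73 over all 16 arrays. They were 6.59, 6.65, 6.44 and 6.48 in sham, 6.44, 6.44, 6.32 and 6.73 at 6 h, 6.50, 6.44, 6.27 and 6.44 at 12 h, and 6.44, 6.50, 6.44 and 6.08 at 18 h. On 6 arrays, which belong to all 4 groups, the deposited value was identical to the last digit, at 6.44. As many identical values or more were found for 645 of the 13410 tested probe sets (4.81%).

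The Spry4 differences from sham were -0.06 ± 0.11 at 6 h, -0.13 ± 0.11 at 12 h and -0.18 ± 0.11 at 18 h (limma adjusted p = 1, 0.629 and 0.414). The 95% intervals ran from -0.30 to 0.19, from -0.37 to 0.12 and from -0.42 to 0.07. The groups overlapped at every time. The intervals rest in part on a value that repeats across arrays, so whether they limit a fall of the transcript was not settled. How far this probe set follows the transcript was not tested.

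Relatives of these genes outside the 6 were at or near the floor, apart from 2 PHLDA genes. Spry3, and 1 of 2 probe sets of Spred3, lay at 2.22 on all 16 arrays, and the other Spred3 probe set lay between 2.91 and 3.13. Phlda2 ran from 2.88 to 6.11 and did not reach the minimum level. Phlda3, a p53-induced inhibitor of AKT signalling, had means of 7.42, 7.06, 7.36 and 7.03 in sham and at 6, 12 and 18 h. It was not called at any time (limma adjusted p = 1, 0.957 and 0.484).

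Of the other genes of the cascade, 61 were tested from 89 fixed symbols. Limma called 2 lower and 0 higher at 6 h, 7 lower and 5 higher at 12 h, and 7 lower and 9 higher at 18 h, with medians of 0.00, 0.01 and 0.02. The list was chosen with earlier results of these data known. Its calls by role, beside the Sprouty values, were as follows.

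Upstream of the Sprouty proteins, 13 receptor tyrosine kinases had 0 calls at 6 and 12 h (0 and 4 at an unadjusted p under 0.05), and at 18 h Igf1r, the IGF-1 receptor gene, fell by 1.08 ± 0.32 (limma adjusted p = 0.0446). Kdr, the endothelial VEGF receptor gene, rose by 0.95 ± 0.21 at 18 h (adjusted p = 0.00876). Among 9 adaptors and exchange factors Shc1, the gene of the adaptor that links receptors to GRB2, fell by 0.91 ± 0.13 at 12 h (adjusted p = 0.000443) and 0.62 ± 0.13 at 18 h (0.00573). Of 6 cascade genes, the RAS gene Nras rose by 0.40 ± 0.10 at 12 h (adjusted p = 0.022) and 0.50 ± 0.10 at 18 h (0.00433). Of 14 partners and regulators of Sprouty and Spred proteins only Mknk1 was called, a kinase gene of the ERK pathway that rose by 1.05 ± 0.19 at 12 h (adjusted p = 0.00381). No receptor, adaptor, cascade or partner gene was called at 6 h.

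Among 7 other feedback and RAS-RAF inhibitors, 2 were lower at 6 h, 3 at 12 h and 2 at 18 h, and 0 were higher. The ERK phosphatase genes Dusp5 and Dusp6 were called at every time, with log2 differences of -2.50, -3.42 and -2.37 (Dusp5) and -2.70, -2.42 and -2.36 (Dusp6). Beside them at 6 h stood Spry2 at -0.90 and Spry1 at -0.64. Lrig1, a membrane inhibitor of ErbB receptors, fell by 0.82 ± 0.16 at 12 h (limma adjusted p = 0.00495) and was not called at 6 or 18 h. Of 13 ERK output transcription factors, the PEA3 genes Etv1, Etv4 and Etv5 were called lower at 12 h and 18 h, when 3 and 7 others of the list, Myc among them, were higher.

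**Figure D3:**
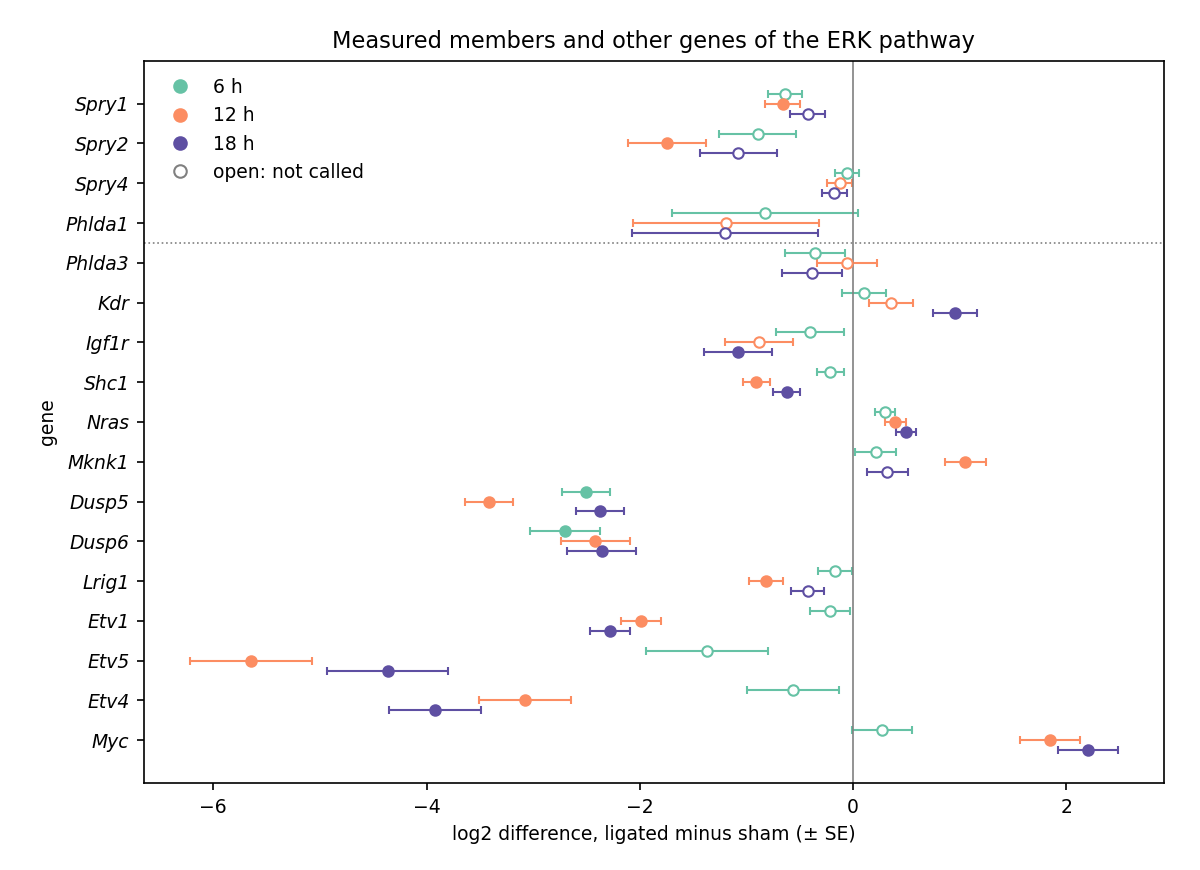
Log2 difference from sham ± SE (x axis) at 6, 12 and 18 h for the 4 measured members, above the dotted line, and for the named genes of the pathway lists. Filled points were called by limma. Etv5 at 12 h and Myc in sham had means under 5, the level taken here as background. The sizes of the Etv5 difference at 12 h and of the Myc differences at 12 and 18 h are therefore less certain. At 6 h Myc was under 5 in both groups. At 6 h the filled points are those of Dusp5 (-2.50) and Dusp6 (-2.70), and among the members only Spry1 and Spry2 at 12 h are filled.

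Markers of the epithelium and of the lumen also differed with time beside the Sprouty falls. Of 5 principal cell markers 1 was called lower at 12 h and 1 at 18 h (3 and 1 at an unadjusted limma p under 0.05). Their median log2 difference from sham was -0.60 at 12 h and -0.49 at 18 h. Their summed level was 15.36 to 15.73 in sham, 14.87 to 15.61 at 12 h and 15.18 to 15.47 at 18 h. Of 7 general epithelial markers 2 were called higher at 12 h and 0 lower. All 3 tested sperm markers were called lower at 12 h. At 6 h 1 of the 3 was already called lower, and all 3 had an unadjusted limma p under 0.05. Summed levels over 6 matched markers were 8.48 to 11.27 in sham, 5.49 to 9.12 at 6 h and 5.48 to 6.92 at 12 h. Of these 6, Akap4 was at the floor on all arrays. The neutrophil markers S100a8 and S100a9 had their highest values on 12 h replicates 1 and 2, as given above, where Spry2 was at 6.74 and 7.17. The part of any of these cells in the Spry1 and Spry2 values was not tested.

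The genes whose pattern over the 16 arrays was most like each member were found by Pearson correlation among 8308 tested genes. The arrays share groups and array classes, and the genes were picked for the highest values, so these are descriptions with no test. For Spry1 they were Irs2, an insulin receptor substrate gene (r = 0.857, Spearman's rho = 0.686), Ppp1r18 (r = 0.852, rho = 0.729) and Dmwd (r = 0.844, rho = 0.714). Without the 2 arrays farthest from the Spry1 median, r was 0.733, 0.728 and 0.717. When each array class was centred, Dusp6 came first for Spry1 (r = 0.891), with Irs2 and Ppp1r18 next.

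For Spry2 they were Sh2b3, the gene of the adaptor LNK (r = 0.887, rho = 0.882), Rfx5, a transcription factor gene for MHC class II (r = 0.880, rho = 0.779), and Efhd2 (r = 0.879, rho = 0.844). Without the 2 arrays farthest from the Spry2 median r was 0.764, 0.739 and 0.785, and with each class centred 2 of the 3 genes were the same. Rfx5 and Efhd2, like Spry2 over all arrays, were lowest at 12 h, and Sh2b3 was lowest at 18 h. At 6, 12 and 18 h the differences from sham were -0.29, -0.96 and -0.47 for Rfx5. They were -0.35, -0.85 and -0.41 for Efhd2 and -0.26, -0.66 and -0.73 for Sh2b3.

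For Phlda1 they were Atp6v0a1, a proton pump subunit gene (r = 0.955, rho = 0.924), Psap (r = 0.931) and Mef2d (r = 0.930). All 3 were lower in replicates 3 and 4, by log2 differences of -1.43, -0.37 and -0.75. With each class centred 0 of these 3 remained among the top 3, which were then Pmepa1 (r = 0.873), P2ry2 (r = 0.856) and Cct5 (r = 0.847), genes whose r over the uncentred arrays was 0.347, 0.400 and -0.174. For Spry4 they were Sgms1 (r = 0.820), Zfp330 (r = 0.772) and St3gal6 (r = 0.742), and without the 2 arrays farthest from its median r was 0.685, 0.606 and 0.593.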

How the data were processed

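RNA of 16 tissue samples was measured on arrays as biotin-labelled cRNA, 1 array per sample. The deposited table holds 1 log2 value per probe set and array, made with GCRMA per the submitters' processing notes, with no version given in the sources used here. Values ran from 2.22 to 15.09, and no scanner files were analysed here. Of 31099 probe sets, 57 controls were left out. The platform annotation of 2016 gave 20826 of the rest 1 symbol, 436 several and 9780 none. Symbols were checked by Entrez ID against GRCr8 (20758 found, 0 changed). A gene with several probe sets was represented by the one with the highest mean.

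A probe set was tested if it was at or above 5 on at least 4 arrays, which left 13410. Differences were tested with limma 3.58.1 in R 4.3.3 in 1 fit of the 4 group means, with Benjamini-Hochberg adjustment over all tested probe sets per comparison, 2-sided, and called at an adjusted p under 0.05. The script was tested on simulated data. Precision is limited by the number of arrays. The replicate number was not a block. The members and lists were chosen with earlier results of these data known. From each of the pathway lists the text names up to 4 called genes, or the one with the smallest p, and for each member the 3 genes of highest correlation, provisional LOC and RGD symbols excepted. The fit of array class and its interaction with time were added after seeing the data. The alternatives were another prior, other minimum levels, normalization again, fewer groups, blocks, array weights, averaged probe sets, a stricter threshold and each array left out.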

Additional observations from a re-analysis of the deposited data

Results flagged for a closer look

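In 2 of the 16 sets of 4 arrays (4 genes in 4 groups) 1 array lay far from the other 3 by Dixon's test at the 95% level, where chance gives about 1 in 20. Spry2 on 6 h replicate 3, at 7.18, was above the other 6 h arrays, of which the nearest was at 6.91. Spry4 on 18 h replicate 4, at 6.08, was below the other 18 h arrays, of which the nearest was at 6.44.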

How the results depend on the processing

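The 2 calls at 12 h (Spry1 and Spry2) became 1, Spry2 alone, with no minimum level, with the array set block, within replicates 3 and 4 and at an adjusted p under 0.01, and 0 with only the 2 groups compared. Within replicates 1 and 2 the 2 calls at 12 h were Spry2 and Phlda1, and the array class block gave 3 with Phlda1 added. Leaving out 1 array gave 1 to 2 calls. At 18 h, where 0 were called, there was 1 with only the 2 groups compared (Spry2), 1 within replicates 1 and 2 (Spry2), 1 within replicates 3 and 4 (Phlda1), 2 with the array class block (Spry2 and Phlda1) and 2 with array weights (Spry1 and Spry2), and 0 to 1 without 1 array. At 6 h array weights gave 1 call (Spry1, adjusted p = 0.0214), and at 12 h against 6 h replicates 1 and 2 alone gave 1 (Phlda1). Leaving out 1 array gave 0 calls in the 6 h comparison and in each comparison between ligated times. The trend and robust prior, the minimum level of 7, centred or requantiled arrays and averaged probe sets left all 6 counts as they were, although Spry4 is not tested at that minimum.

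Whether same-numbered replicates pair was not settled. Their deviations from the group means correlated at 0.01 to 0.56, beside -0.01 to 0.63 for the other number of the same class. Across classes the highest value was 0.10, and 10 of 16 arrays correlated best with their own number. The replicate block gave 2 calls at 18 h (Spry2, adjusted p = 0.0487, and Phlda1, 0.0182) and added Phlda1 at 12 h (0.0222).

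Against sham 1 difference changed sign, that of Spry4 at 6 h (0.068 within replicates 3 and 4). The other changes of sign were between ligated times, where none was called over all arrays. For Phlda1 at 18 h against 12 h, -0.0032 over all arrays, the difference was 0.0019 with centred arrays, 0.012 with quantile normalization again and 0.42 within replicates 1 and 2. At 12 h against 6 h Phlda1 stood at 0.072 within replicates 3 and 4 and 0.019 with array weights. Spry1 at 12 h against 6 h stood at 0.20 with the array set block, 0.19 within replicates 1 and 2 and 0.095 with array weights. Spry2 stood at 0.24 for 18 h against 6 h with the array set block, and within replicates 1 and 2 at 0.069 for 12 h against 6 h and -0.095 for 18 h against 12 h. Spry4 within replicates 1 and 2 stood at 0.029 for 12 h and 0.028 for 18 h against 6 h. Without 1 array, ranges that crossed 0 were -0.84 to 0.16 (Phlda1, 12 h against 6 h), -0.53 to 0.47 (Phlda1, 18 h against 12 h), -0.86 to 0.10 (Phlda1, 18 h against 6 h), -0.12 to 0.13 (Spry1, 12 h against 6 h), -0.13 to 0.011 (Spry4, 12 h against 6 h) and -0.095 to 0.047 (Spry4, 18 h against 12 h). The correlations of the genes chosen over the 16 arrays kept their sign when each array class was centred. Cct5, chosen for Phlda1 after centring, went from -0.174 uncentred to 0.847.

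Over all tested probe sets the counts called were 38, 1054 and 1362 at 6, 12 and 18 h against sham. Without 1 array they were 7 to 48, 626 to 1132 and 879 to 1426, and over the other alternatives 3 to 104, 440 to 2426 and 638 to 2179. The cause of these changes was not tested. In the fit over all arrays with no block, the Phlda1 differences of -1.20 had an SE of 0.87 and were not called.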
